A study of Homo sapiens with 8 samples.

Results

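The 33 genes described here act in the G2 phase and in mitosis: they start mitosis, hold it until chromosomes are attached, build the spindle and separate the daughter cells. They were taken by name from the FPKM tables (fragments per kilobase of transcript, scaled by mapped fragments) of 2 human osteosarcoma cell lines, 143B and HOS, and all 33 were found in both, among 12700 genes listed for 143B and 12810 listed for HOS. All 33 passed the filter on low values (1 FPKM in any 2 of a line's 4 libraries) in both lines, though CENPE in 143B passed it only with the help of its sgNAT10 libraries, in which it was high. They were sorted by role into 9 genes of mitotic entry, 5 of the spindle checkpoint and the anaphase trigger, 5 of the centromere and kinetochore, 4 kinesins, 3 of spindle assembly, 4 of the chromosomal passenger complex and cytokinesis, and 3 others.

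Polyadenylated RNA was sequenced from 143B cells labelled sgNAT10 and 143B cells labelled NC, and from HOS cells labelled sgNAT10 and HOS cells labelled NC. There were 8 libraries, 2 for each of the 4 groups. The submitters describe the sgNAT10 cells as a knockout of NAT10, the enzyme that writes N4-acetylcytidine on RNA, and the NC cells as controls. HOS is an established osteosarcoma line and 143B is a transformed derivative of it. No drug, age or time point is given, and nothing states whether replicate libraries stem from separate cultures, clones or guides, so the p-values measure the spread between these libraries, which may be technical.

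Transcripts of this kind are scarce in resting and early-cycle cells and accumulate in G2. In G1 the DREAM complex, made of E2F4 or E2F5, the pocket proteins p107 and p130 and the MuvB core, holds many of their promoters silent. Later in the cycle MuvB works with B-MYB and then FOXM1 to switch the same promoters on. Short promoter elements known for this control are the cell cycle genes homology region (CHR), with the letters TTTGAA, and the CCAAT box bound by NF-Y. In RNA from a bulk culture, fewer cells in G2 and mitosis cannot be told apart from less RNA of these genes per cell.

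NAT10 itself checks the labels. It was at 9.05 and 7.19 FPKM in the 143B libraries labelled sgNAT10, against 16.06 and 19.95 FPKM in 143B NC. In HOS it was at 21.13 and 19.14 FPKM in the sgNAT10-labelled libraries, against 14.86 and 16.22 FPKM in HOS NC. The RNA was therefore lower under the sgNAT10 label in 143B and higher under it in HOS, with no overlap of groups in either line. Changes are given as sgNAT10 minus NC on the log2(FPKM + 1) scale, and a gene is said to have changed, or is called, where its limma p adjusted over all genes tested is under 0.05. The change of NAT10 was -1.06 in 143B (SE 0.31, limma adjusted p = 0.0259) and 0.35 in HOS (SE 0.10, limma adjusted p = 0.00544). Leaving out sgNAT10 replicate 1 (adjusted p = 0.109), sgNAT10 replicate 2 (0.219) or NC replicate 2 (0.064) ended the 143B call, and leaving out sgNAT10 replicate 1 (0.18) ended the HOS call. After length and GC correction the HOS value was -0.08. NAT10 RNA thus goes against the label in HOS, and each HOS direction below is one between libraries as labelled. An edited gene can keep its RNA, so the level does not measure the protein.

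Read depth is unknown. The sum of listed FPKM was 798137 and 775277 in 143B sgNAT10, against 653693 and 594407 in 143B NC. In HOS it was 484793 and 494186 in the sgNAT10-labelled libraries, against 559748 and 574807 in NC. The sum was thus higher under the sgNAT10 label in 143B and lower under it in HOS. Of 9 mesenchymal and osteoblast markers all were listed in HOS and 7 in 143B, where COL1A2 and THY1 were not; their summed level was 513 to 813 FPKM in 143B sgNAT10, 1400 to 1830 FPKM in 143B NC, 1840 to 1910 FPKM in HOS sgNAT10 and 1470 to 1660 FPKM in HOS NC. Of 8 blood markers 4 were listed in each line, and PTPRC, CD3E, HBB and CD74 were not; the summed level of the 4 was 53.1 to 58.4 FPKM in 143B sgNAT10, 106 to 129 FPKM in 143B NC, 22.7 to 23.1 FPKM in HOS sgNAT10 and 18.2 to 18.5 FPKM in HOS NC. In 143B these sums rest mostly on single genes. VIM alone was at 481.52 and 766.08 FPKM in sgNAT10, against 1339.3 and 1741.42 FPKM in NC. CD68 alone was at 50.22 and 45.61 FPKM in 143B sgNAT10, against 126.36 and 102.97 FPKM in NC. Among the markers of those lists tested in 143B, CDH2 (log2 0.70, not called) and LYZ went the other way. LYZ was at 7.33 and 6.89 FPKM in sgNAT10, against 0.69 and 1.3 FPKM in NC. The part of the markers in the results was not tested. Replicates were closer in HOS than in 143B, where replicate 1 was below replicate 2 for 25 of the 33 genes in sgNAT10 and 28 of 33 in NC. The median of those within-group differences was -0.52 and -0.82 on the log2 scale, against -0.15 and -0.28 over all genes tested. In HOS the counts were 18 and 9 of 33 and the medians -0.01 and 0.15. In 143B, then, libraries of 1 group differed over these genes by more than many of the changes described below.

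Promoters of 5 of the genes are shown here because they carry the known cell cycle elements and belong to genes with large changes. HMMR, PRC1, TOP2A and CENPF are the genes lower in HOS with the largest falls among those whose RefSeq window holds the CHR letters, and PRR11, chosen after its values were seen, has the largest change in 143B. Each line gives the 200 bases before the RefSeq start on GRCh38.p14, 5′ to 3′ on the gene's strand. Capitals mark TTTGAA or its reverse complement TTCAAA, and CCAAT or its reverse complement ATTGG.
HMMR, chr5:163460432-163460631, plus strand: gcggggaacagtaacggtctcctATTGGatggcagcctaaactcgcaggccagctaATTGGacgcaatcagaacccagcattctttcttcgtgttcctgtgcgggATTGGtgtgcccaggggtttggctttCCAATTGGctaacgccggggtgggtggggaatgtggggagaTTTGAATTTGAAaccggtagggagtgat
PRC1, chr15:90994536-90994735, minus strand: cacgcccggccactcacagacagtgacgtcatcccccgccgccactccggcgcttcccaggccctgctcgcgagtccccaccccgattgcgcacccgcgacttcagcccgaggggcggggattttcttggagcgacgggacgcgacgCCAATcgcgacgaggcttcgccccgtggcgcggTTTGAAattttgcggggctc
TOP2A, chr17:40417897-40418096, minus strand: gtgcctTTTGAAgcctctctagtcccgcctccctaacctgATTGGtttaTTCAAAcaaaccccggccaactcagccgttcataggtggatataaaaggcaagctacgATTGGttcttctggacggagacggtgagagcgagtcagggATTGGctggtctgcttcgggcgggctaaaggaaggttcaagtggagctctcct
CENPF, chr1:214602995-214603194, plus strand: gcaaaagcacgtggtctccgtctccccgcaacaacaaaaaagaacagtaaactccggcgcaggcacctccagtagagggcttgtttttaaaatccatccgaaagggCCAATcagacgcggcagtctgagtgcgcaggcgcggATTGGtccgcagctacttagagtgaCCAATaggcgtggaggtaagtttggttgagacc
PRR11, chr17:59155546-59155745, plus strand: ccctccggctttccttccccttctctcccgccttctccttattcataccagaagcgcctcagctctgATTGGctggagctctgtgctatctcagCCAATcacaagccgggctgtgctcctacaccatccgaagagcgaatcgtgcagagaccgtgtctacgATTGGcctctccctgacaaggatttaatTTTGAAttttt

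The CHR letters lie close to the start in most of these promoters. HMMR has 2 copies, 28 and 22 bases before the start, that share no base, with 5 CCAAT boxes upstream, the nearest pair of which overlap. PRC1 has 1 copy 20 bases before the start and 1 CCAAT box 53 bases before it. TOP2A has its copies farther out, 194 and 151 bases before the start, and 3 CCAAT boxes in the stretch shown. In CENPF the letters fall 40 bases after the start and so outside the stretch shown, which holds 3 CCAAT boxes. PRR11 has 1 copy 11 bases before the start and 3 CCAAT boxes.

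RefSeq windows from 250 bases before to 50 after the start were given for 27 of the 33 genes, and AURKA, FOXM1, TTK, UBE2C, TPX2 and BIRC5 had none. TTTGAA on either strand was present in 19 of the 27 (70.4%), against 18.2% of 27305 genes in the table and 13.3% of 9279 genes listed in both FPKM tables. CCAAT on either strand was present in 20 of the 27 (74.1%), against 39.7% and 43.3%. Among the genes lower in HOS under the sgNAT10 label 15 of 18 held TTTGAA, among those higher 2 of 4, and among those not called 2 of 5. A gene with several windows counts if any of them holds the letters. A match describes the letters of the window and no binding was measured.

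**Figure D1:**
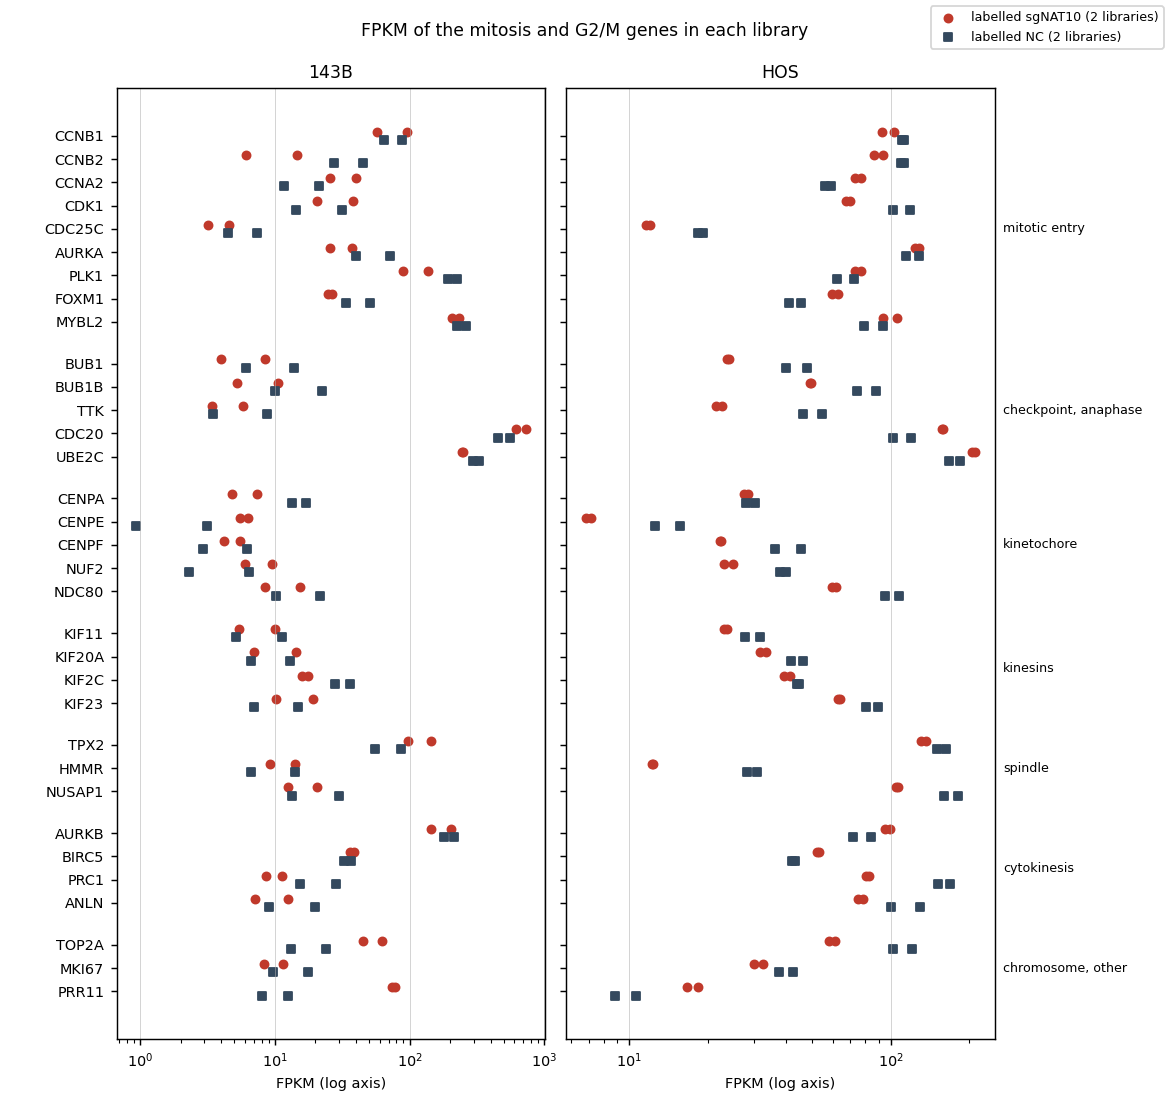
FPKM on a log axis for each of the 33 genes in each library, with 143B left and HOS right; red circles are the 2 libraries labelled sgNAT10 and dark squares the 2 labelled NC, and genes are grouped by role. In HOS the circles lie left of the squares for most checkpoint kinases, kinetochore genes, kinesins and spindle genes, while in 143B the 2 libraries of a group are often as far apart as the groups.

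In HOS most of the genes were lower in the sgNAT10-labelled libraries: 20 of 33 fell (60.6%), 7 rose (21.2%) and 6 did not pass the test, against 23.0% of 11957 genes tested that fell and 45.5% that rose. Their median log2 change was -0.34, against 0.19 over all genes tested. The falls included the checkpoint kinases TTK, BUB1 and BUB1B, 4 of 5 kinetochore genes, 3 of 4 kinesins and all 3 spindle assembly genes. The rises were CCNA2, FOXM1, CDC20, UBE2C, AURKB, BIRC5 and PRR11. Summed over the 33 genes, FPKM came to 2137 and 2139 in the sgNAT10-labelled libraries, against 2603 and 2463 in NC. As a share of each library's listed FPKM this was 0.441% and 0.433%, against 0.465% and 0.428% in NC, and the groups overlapped.

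In 143B fewer of the genes passed the test, with wider standard errors: 3 of 33 were higher in sgNAT10 (9.09%), namely PRR11, TOP2A and CENPE, against 12.9% of 11419 genes tested. A further 5 were lower (15.2%), namely CCNB2, CENPA, PRC1, PLK1 and KIF2C, against 25.4% of genes tested. Both shares lay below those of all genes on the scale as deposited, which did not hold under every alternative given below, and 25 genes did not pass the test. The median log2 change was -0.20, against -0.25 over all genes tested. The summed FPKM was 2094 and 2079 in sgNAT10, against 2046 and 2104 in NC. As a share of each library's listed FPKM it was 0.262% and 0.268%, against 0.313% and 0.354% in NC, lower with no overlap.

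These counts depend on single libraries and on the scale. Without 143B sgNAT10 replicate 1 or 2 the median log2 change of the 33 was 0.041 or -0.4 (-0.12 or -0.36 over all genes). Without 143B NC replicate 1 or 2 it was -0.34 or 0.18 (-0.43 or -0.085). In HOS the median lay between -0.43 and -0.29 over the left-out libraries (0.17 to 0.21 over all genes). Median-ratio scaling, which moves the median change of all genes to -0.02 in 143B and -0.01 in HOS, gave 6 higher and 2 lower in 143B (20.7% and 22.3% of all genes) and 3 higher and 23 lower in HOS (31.5% and 33.8%). Rescaling to a common sum, which moves those medians to -0.53 and 0.37, gave 2 higher and 7 lower in 143B (7.8% and 32.7% of all genes) and 10 higher and 16 lower in HOS (59.2% and 14.2%). Quantile normalization gave 8 higher and 3 lower in 143B (24.4% and 25.0% of all genes). With the spread estimated from all 8 libraries together, the less close 143B replicates included, 2 of the HOS falls (HMMR and PRC1) and 1 of the rises (PRR11) passed the test, as did 2.8% of all genes downward and 14.7% upward.

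**Figure D2:**
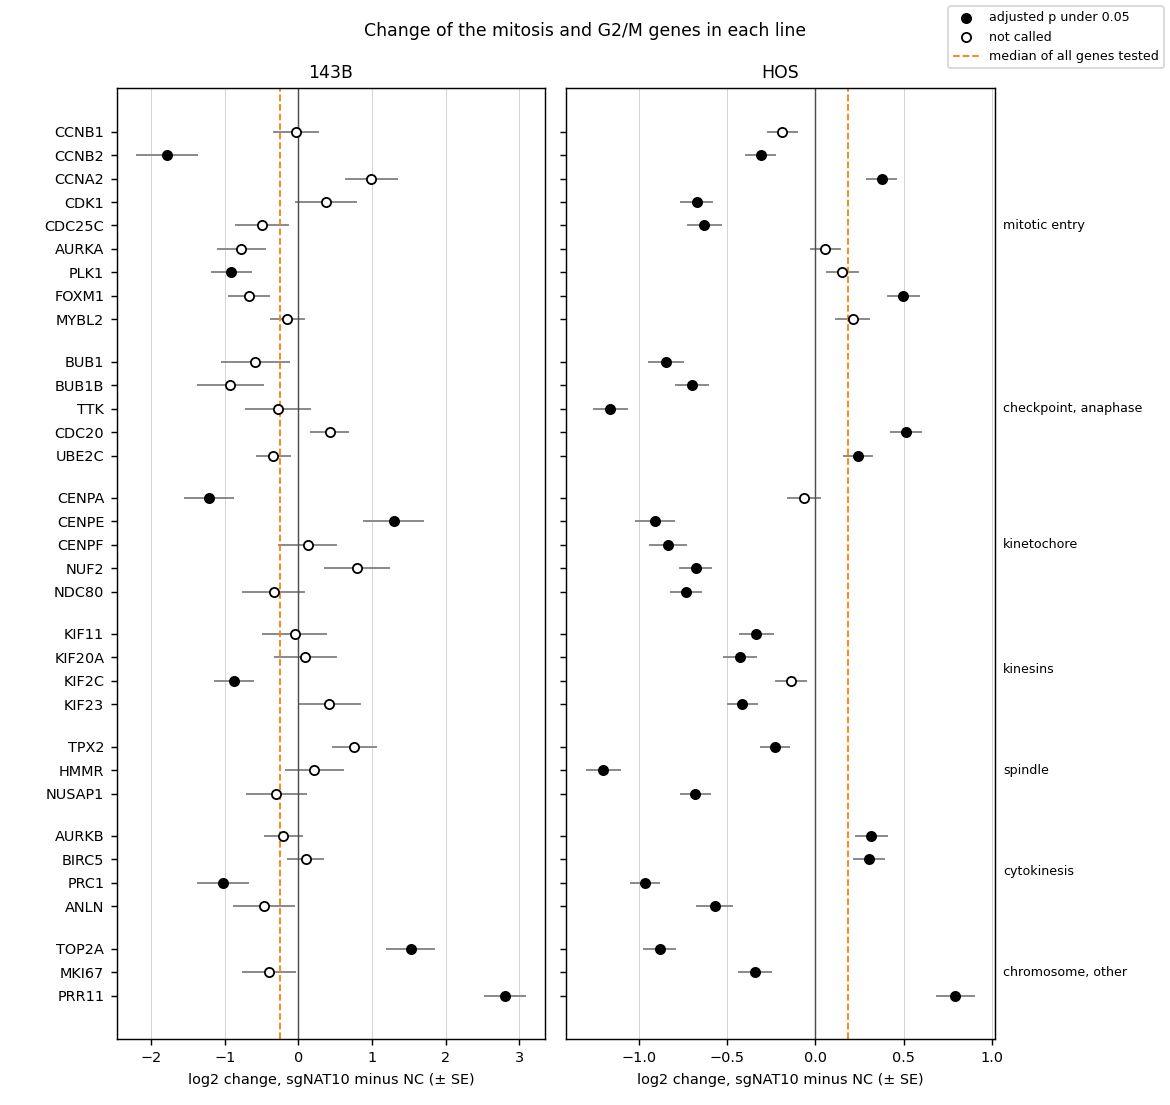
Log2 change (sgNAT10 minus NC, on the log2(FPKM + 1) scale) with its standard error for each of the 33 genes, 143B left and HOS right, each panel on its own scale; filled points have a limma adjusted p under 0.05 and the dashed line is the median of all genes tested. In HOS 20 filled points lie below 0 and 7 above it, and in 143B 5 lie below and 3 above, with wider standard errors.

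Of the 9 genes of mitotic entry, 2 fell in 143B, where 1 more had an unadjusted p under 0.05 upward and 2 more downward. In HOS 3 fell and 2 rose, a balance that turned with the scale (1 higher and 4 lower under median-ratio scaling, 5 higher and 2 lower rescaled to a common sum). CCNB2 encodes cyclin B2, a partner of CDK1. It was at 6.14 and 14.57 FPKM in 143B sgNAT10, against 27.46 and 45.26 FPKM in 143B NC. Both sgNAT10 libraries lay below both NC libraries, a log2 change of -1.78 (SE 0.41, limma adjusted p = 0.0105). In HOS CCNB2 was at 86.17 and 93.51 FPKM in the sgNAT10-labelled libraries, against 112.94 and 110.05 FPKM in NC. The groups did not overlap there either, and the change was smaller, -0.31 (SE 0.09, limma adjusted p = 0.00432), a call that ended without sgNAT10 replicate 1 (adjusted p = 0.16), when rescaled to a common sum (-0.10, adjusted p = 0.313) and under quantile normalization (-0.18, adjusted p = 0.0646). CCNB1, the other B-type cyclin of the set, had log2 changes of -0.03 in 143B and -0.19 in HOS and did not pass the test in either line (adjusted p = 0.944 and 0.0674).

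PLK1, the Polo-like kinase that drives mitotic entry and centrosome maturation, was at 137.91 and 89.02 FPKM in 143B sgNAT10, against 226.42 and 194.16 FPKM in 143B NC. Both NC libraries were above both sgNAT10 libraries, with a log2 change of -0.91 (SE 0.28, limma adjusted p = 0.0305). Leaving out sgNAT10 replicate 2 ended the call (adjusted p = 0.283), and so did correction for length and GC (log2 -0.26, adjusted p = 0.36). In HOS PLK1 was at 77.31 and 72.91 FPKM in the sgNAT10-labelled libraries, against 62.4 and 72.75 FPKM in NC, and the change of 0.15 did not pass the test (adjusted p = 0.156). CDK1 is the kinase that the cyclins activate. It was at 67.47 and 69.73 FPKM in HOS libraries labelled sgNAT10, against 118.2 and 102.12 FPKM in HOS NC, with no overlap and a log2 change of -0.67 (SE 0.09, limma adjusted p = 8.2e-06). In 143B CDK1 was at 20.62 and 38.13 FPKM in sgNAT10, against 14.34 and 31.68 FPKM in NC, so the groups overlapped and the change of 0.38 did not pass the test (adjusted p = 0.51).

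CDC25C, the phosphatase that activates CDK1, was at 11.57 and 12.02 FPKM in HOS libraries labelled sgNAT10, against 18.36 and 19.22 FPKM in HOS NC. The groups were well apart, with a log2 change of -0.63 (SE 0.10, limma adjusted p = 3.52e-05). In 143B it was at 3.17 and 4.58 FPKM in sgNAT10, against 4.53 and 7.34 FPKM in NC, a narrow overlap, and the change of -0.49 did not pass the test. FOXM1, the transcription factor that switches on many of these genes, moved the other way in HOS. It was at 63.01 and 59.68 FPKM in the sgNAT10-labelled libraries, against 40.78 and 45.54 FPKM in NC, a log2 change of 0.50 (SE 0.09, limma adjusted p = 0.000156). After length and GC correction that change was 0.07 (adjusted p = 0.249). In 143B FOXM1 was at 26.63 and 24.68 FPKM in sgNAT10, against 33.8 and 50.73 FPKM in NC, and the change of -0.67 did not pass the test (adjusted p = 0.0903). MYBL2, which encodes B-MYB, did not pass the test in either line, with log2 changes of -0.15 in 143B and 0.21 in HOS; after length and GC correction MYBL2 was called in both with the sign turned, at 0.66 in 143B (adjusted p = 0.017) and -0.14 in HOS (adjusted p = 0.0435). CCNA2, cyclin A2, rose in HOS (log2 0.38, adjusted p = 0.00115; 0.15 under median-ratio scaling, where it was not called, and adjusted p = 0.0637 without sgNAT10 replicate 2) and had a change of 0.99 in 143B that did not pass the test (adjusted p = 0.0563). AURKA, the spindle pole kinase Aurora A, passed in neither line, with log2 changes of -0.78 in 143B and 0.06 in HOS.

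The checkpoint kinases and the anaphase activators parted in HOS on the scale as deposited. Under median-ratio scaling or GC correction alone UBE2C was not called there, and CDC20 alone of the 5 was higher. TTK (MPS1), BUB1 and BUB1B (BUBR1) hold anaphase back while kinetochores are unattached, and all 3 fell. CDC20 and UBE2C, the activator and the ubiquitin-conjugating enzyme of the anaphase promoting complex, rose. In 143B 0 of the 5 passed limma's test, and 0 had an unadjusted p under 0.05; after length and GC correction 1 was higher and 3 lower. TTK was at 21.44 and 22.57 FPKM in HOS libraries labelled sgNAT10, against 54.75 and 46.34 FPKM in HOS NC. Both NC libraries lay well above both sgNAT10 libraries, a log2 change of -1.16 (SE 0.10, limma adjusted p = 8.11e-08). In 143B TTK was at 3.41 and 5.78 FPKM in sgNAT10, against 3.48 and 8.73 FPKM in NC, and the groups overlapped (log2 -0.27).

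BUB1 was at 24.03 and 23.7 FPKM in HOS libraries labelled sgNAT10, against 48 and 39.83 FPKM in HOS NC. The groups did not overlap, and the log2 change was -0.85 (SE 0.10, limma adjusted p = 2.21e-06). BUB1 in 143B was at 3.97 and 8.51 FPKM in sgNAT10, against 6.11 and 13.98 FPKM in NC, an overlap (log2 -0.59, adjusted p = 0.355). BUB1B fell in HOS by 0.70 on the log2 scale (adjusted p = 8.46e-06) and had a change of -0.92 in 143B that did not pass the test (adjusted p = 0.137). CDC20 was at 157.75 and 158.54 FPKM in HOS libraries labelled sgNAT10, against 102.28 and 119.69 FPKM in HOS NC. It was higher in both sgNAT10 libraries (log2 0.51, SE 0.09, limma adjusted p = 0.000105), and its 143B change of 0.42 did not pass the test (adjusted p = 0.244). UBE2C was at 205.17 and 210.38 FPKM in HOS libraries labelled sgNAT10, against 167.78 and 183.56 FPKM in HOS NC. The groups did not overlap, but the change of 0.24 (SE 0.08, limma adjusted p = 0.0167) was 0.01 under median-ratio scaling and -0.04 after GC correction alone, and it lost its call without sgNAT10 replicate 1 (adjusted p = 0.113) or 2 (0.17). In 143B UBE2C was at 248.14 and 243.29 FPKM in sgNAT10, against 329.18 and 294.55 FPKM in NC, and the change of -0.34 did not pass the test.

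Among the 5 centromere and kinetochore genes 4 fell in HOS and CENPA did not pass the test, while in 143B CENPE rose and CENPA fell. CENPE is the kinesin-like motor that carries chromosomes to the spindle equator. It was at 6.36 and 5.54 FPKM in 143B sgNAT10, against 0.94 and 3.14 FPKM in 143B NC. Both sgNAT10 libraries were higher, with a log2 change of 1.29 (SE 0.41, limma adjusted p = 0.0358), a call that ended without sgNAT10 replicate 1 (adjusted p = 0.152), sgNAT10 replicate 2 (0.123) or NC replicate 1 (0.15), and when rescaled to a common sum (1.04, adjusted p = 0.126). In HOS CENPE was at 6.84 and 7.16 FPKM in the sgNAT10-labelled libraries, against 15.64 and 12.53 FPKM in NC. Both HOS sgNAT10 libraries were lower, the opposite direction, with a log2 change of -0.91 (SE 0.12, limma adjusted p = 3.86e-06).

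CENPA, the histone H3 variant that marks centromeres, was at 4.8 and 7.32 FPKM in 143B sgNAT10, against 13.45 and 16.99 FPKM in 143B NC. The groups were apart (log2 -1.21, SE 0.34, limma adjusted p = 0.022), and the call ended without sgNAT10 replicate 1 (-0.95, adjusted p = 0.248) or 2 (-1.48, adjusted p = 0.0615). In HOS CENPA was at 28.41 and 27.47 FPKM in the sgNAT10-labelled libraries, against 30.41 and 28.09 FPKM in NC, and the change of -0.06 did not pass the test (adjusted p = 0.564). CENPF, a large outer kinetochore protein, was at 22.29 and 22.47 FPKM in HOS libraries labelled sgNAT10, against 45.51 and 36.24 FPKM in HOS NC. It fell with no overlap, by 0.83 on the log2 scale (SE 0.11, limma adjusted p = 4.33e-06), while its 143B libraries at 4.22 and 5.53 FPKM in sgNAT10 and 2.95 and 6.26 FPKM in NC overlapped (log2 0.12). NUF2, a subunit of the NDC80 complex that holds microtubules, was at 23.06 and 24.92 FPKM in HOS libraries labelled sgNAT10, against 39.99 and 37.84 FPKM in HOS NC. The groups did not overlap (log2 -0.68, SE 0.09, limma adjusted p = 1e-05). In 143B NUF2 was at 6.06 and 9.54 FPKM in sgNAT10, against 2.32 and 6.45 FPKM in NC, an overlap, and the change of 0.79 did not pass the test (adjusted p = 0.197). Its partner NDC80 fell in HOS (log2 -0.73, adjusted p = 2.83e-06) and had a change of -0.34 in 143B that did not pass the test.

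Of the 4 kinesins, KIF11, KIF20A and KIF23 fell in HOS and KIF2C did not pass the test, while in 143B KIF2C alone passed it. KIF2C (MCAK) is a depolymerase that frees wrongly attached microtubules. It was at 17.55 and 16.03 FPKM in 143B sgNAT10, against 27.82 and 35.96 FPKM in 143B NC. Both NC libraries were higher (log2 -0.88, SE 0.27, limma adjusted p = 0.0334), and the call ended without sgNAT10 replicate 1 (adjusted p = 0.133), sgNAT10 replicate 2 (0.186) or NC replicate 2 (0.125), under median-ratio scaling and quantile normalization, and after length and GC correction (-0.44). In HOS KIF2C was at 41.22 and 39.05 FPKM in the sgNAT10-labelled libraries, against 44.52 and 43.83 FPKM in NC, and the change of -0.14 did not pass the test. KIF20A (MKLP2), which works at the central spindle, was at 33.25 and 31.64 FPKM in HOS libraries labelled sgNAT10, against 46.26 and 41.68 FPKM in HOS NC. The groups did not overlap, with a log2 change of -0.43 (SE 0.09, limma adjusted p = 0.000744). In 143B KIF20A overlapped between groups, at 6.99 and 14.4 FPKM in sgNAT10 and 6.68 and 13.01 FPKM in NC (log2 0.10). KIF23 (MKLP1), a subunit of centralspindlin, was at 63.04 and 63.8 FPKM in HOS libraries labelled sgNAT10, against 89.23 and 80.57 FPKM in HOS NC, and fell by 0.41 on the log2 scale (SE 0.09, limma adjusted p = 0.00059). In 143B KIF23 overlapped between groups, at 10.26 and 19.21 FPKM in sgNAT10 and 7.05 and 14.79 FPKM in NC, and its change of 0.42 did not pass the test. KIF11 (Eg5), which pushes the spindle poles apart, had the smallest of the 3 HOS falls (log2 -0.33, adjusted p = 0.00632; 0.0772 without sgNAT10 replicate 1 and 0.119 without replicate 2) and a 143B change of -0.05.

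The 3 spindle assembly genes all fell in HOS, and in 143B 0 passed limma's test, with 1 above 0 at an unadjusted p under 0.05. HMMR (RHAMM), a spindle pole protein, had the largest HOS fall of the 33 genes on the scale as deposited. It was at 12.28 and 12.36 FPKM in HOS libraries labelled sgNAT10, against 30.91 and 28.33 FPKM in HOS NC, a log2 change of -1.20 (SE 0.10, limma adjusted p = 4.54e-08). In 143B HMMR overlapped between groups, at 9.28 and 14.15 FPKM in sgNAT10 and 6.65 and 14.08 FPKM in NC (log2 0.22). NUSAP1, which bundles spindle microtubules, was at 106.51 and 105.26 FPKM in HOS libraries labelled sgNAT10, against 181.14 and 159.95 FPKM in HOS NC. It fell with no overlap (log2 -0.68, SE 0.09, limma adjusted p = 4.45e-06), and in 143B, at 12.55 and 20.63 FPKM in sgNAT10 and 13.34 and 29.84 FPKM in NC, it overlapped. TPX2, which activates Aurora A on the spindle, was at 96.76 and 143.91 FPKM in 143B sgNAT10, against 55.53 and 86.33 FPKM in 143B NC. The groups did not overlap, yet the change of 0.76 did not pass the test (adjusted p = 0.0782). In HOS TPX2 was at 136.5 and 131.3 FPKM in the sgNAT10-labelled libraries, against 163.05 and 150.77 FPKM in NC. The groups were apart by little (log2 -0.23, SE 0.08, limma adjusted p = 0.025), and the call ended without sgNAT10 replicate 1 (adjusted p = 0.135) or 2 (0.243) and when rescaled to a common sum (-0.02).

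Of the 4 passenger and cytokinesis genes, AURKB and BIRC5 rose in HOS and PRC1 and ANLN fell; under median-ratio scaling 0 were higher and the same number, 2, were lower. PRC1, which crosslinks the antiparallel microtubules of the central spindle, fell in both lines. It was at 8.56 and 11.27 FPKM in 143B sgNAT10, against 15.42 and 28.59 FPKM in 143B NC, with no overlap (log2 -1.03, SE 0.36, limma adjusted p = 0.0499). That call ended without sgNAT10 replicate 1 (adjusted p = 0.246), sgNAT10 replicate 2 (0.0797) or NC replicate 2 (0.23) and under median-ratio scaling (-0.76, adjusted p = 0.0792). In HOS PRC1 was at 82.59 and 80.74 FPKM in the sgNAT10-labelled libraries, against 169.11 and 151.9 FPKM in NC, and the groups lay far apart (log2 -0.96, SE 0.09, limma adjusted p = 1.21e-07). ANLN (anillin), the scaffold of the cleavage furrow, was at 75.31 and 78.33 FPKM in HOS libraries labelled sgNAT10, against 130 and 100.65 FPKM in HOS NC. It fell by 0.57 on the log2 scale (SE 0.11, limma adjusted p = 0.000156), and in 143B, at 7.13 and 12.43 FPKM in sgNAT10 and 8.99 and 19.86 FPKM in NC, it overlapped. AURKB and BIRC5 encode Aurora B and survivin, subunits of the passenger complex. Their HOS changes of 0.32 and 0.30 (adjusted p = 0.00679 and 0.00583) were 0.09 and 0.08 under median-ratio scaling and -0.04 and -0.02 after GC correction alone, and neither was called without sgNAT10 replicate 1 (adjusted p = 0.118 and 0.108). In 143B their changes of -0.20 and 0.10 did not pass the test.

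TOP2A, PRR11 and MKI67 make up the last group. TOP2A encodes topoisomerase II alpha, which untangles sister chromatids. It was at 45.44 and 62.21 FPKM in 143B sgNAT10, against 13.11 and 24.12 FPKM in 143B NC. Both sgNAT10 libraries were above both NC libraries, with a log2 change of 1.52 (SE 0.33, limma adjusted p = 0.00842). In HOS TOP2A was at 58.34 and 61.53 FPKM in the sgNAT10-labelled libraries, against 120.25 and 102.61 FPKM in NC. Here both sgNAT10 libraries were below both NC libraries, with a log2 change of -0.88 (SE 0.09, limma adjusted p = 6.87e-07). MKI67, the proliferation antigen Ki-67 that coats mitotic chromosomes, fell in HOS (log2 -0.34, adjusted p = 0.00528; 0.154 without sgNAT10 replicate 2) and had a change of -0.40 in 143B that did not pass the test.

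PRR11, a cell cycle gene on chromosome 17, was the 1 gene of the 33 called higher in both lines. It was at 74.55 and 77.41 FPKM in 143B sgNAT10, against 8.09 and 12.44 FPKM in 143B NC. The sgNAT10 libraries lay close together and far above NC, with a log2 change of 2.80 (SE 0.28, limma adjusted p = 0.000976). In HOS PRR11 was at 18.4 and 16.73 FPKM in the sgNAT10-labelled libraries, against 10.64 and 8.83 FPKM in NC, higher again with no overlap (log2 0.79, SE 0.11, limma adjusted p = 9.93e-06). PRR11 lies head to head with SKA2, a kinetochore gene on the opposite strand, and their annotated starts are 230 bases apart in GENCODE 29 on GRCh38. The RefSeq start used for the PRR11 promoter above is a different one, further inside the gene. SKA2 was at 23.11 and 34.15 FPKM in 143B sgNAT10, against 6.94 and 13.54 FPKM in 143B NC, so it too was higher (log2 1.44, limma adjusted p = 0.0153). In HOS SKA2 was at 32 and 34.17 FPKM in the sgNAT10-labelled libraries, against 47.64 and 44.11 FPKM in NC, lower while PRR11 was higher (log2 -0.46, limma adjusted p = 0.000344). Exons of PRR11 overlap exons of other annotated genes on both strands, as do those of PRC1. Over the 33 genes, 5 overlap a gene on the same strand and 12 a gene on the opposite strand, and the use of strand in counting is not stated.

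Set side by side, 14 of the 33 genes had changes below 0 in both lines, 4 above 0 in both, 9 above 0 in 143B and below 0 in HOS, and 6 the reverse. Of 5 called in both lines, PRR11 rose in both, CCNB2 and PRC1 fell in both on the scale as deposited, and CENPE and TOP2A went opposite ways. The difference itself (143B change minus HOS change) was tested in a joint fit of the 8 libraries. That fit gives both lines the same spread for each gene, though replicates were closer in HOS. Its standard error can thus lie below that of the 143B change alone, as for UBE2C (0.2154 against 0.2389), or above it, as for TOP2A (0.391 against 0.3347). Adjusted p-values near the threshold may therefore be too small, and leaving out a HOS library also changes the shared spread. The difference was above 0 for 6 genes, against 12.9% of 10655 genes tested, and below 0 for 6, against 36.2%. The 6 above were TOP2A (log2 2.40, SE 0.39, limma adjusted p = 0.00114), CENPE (2.20, SE 0.46, adjusted p = 0.00392), PRR11 (2.01, SE 0.32, adjusted p = 0.001), NUF2 (1.47), HMMR (1.42) and TPX2 (0.99). The 6 below were CCNB2 (-1.47, SE 0.50, limma adjusted p = 0.0345), FOXM1 (-1.17), CENPA (-1.15), PLK1 (-1.07), KIF2C (-0.74) and UBE2C (-0.58). By role, 3 entry genes, 1 checkpoint gene and 1 kinesin lay below 0, 2 spindle assembly genes and 2 of the last group above it, and the kinetochore genes split into 2 above and 1 below; of the cytokinesis genes 0 differed by limma, 0 also at an unadjusted p under 0.05. These splits turned with the scale: 12 of the 33 lay above 0 and 0 below under median-ratio scaling (2662 and 2709 of all genes), 13 and 7 under quantile normalization (2814 and 3080), 15 and 4 after length and GC correction (2902 and 3219), and 3 and 11 with a common sum (625 and 5156). Under median-ratio scaling 2 entry genes and 2 kinesins were called above 0, and after length and GC correction 2 cytokinesis genes. Over all genes the median difference was -0.44, and over the 33 it was 0.15. TOP2A, CENPE and PRR11 kept their calls under all alternatives run, and 0 of the 6 below did. The 6 below and NUF2, HMMR and TPX2 lost theirs with 1 HOS library left out. Without HOS sgNAT10 replicate 1 or 2 the median difference over the 33 was 0.11 or 0.22 (-0.43 or -0.44 over all genes). Without HOS NC replicate 1 or 2 it was 0.17 or 0.29 (-0.43 or -0.45), and without 143B sgNAT10 replicate 2 it was -0.11 (-0.53).

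**Figure D3:**
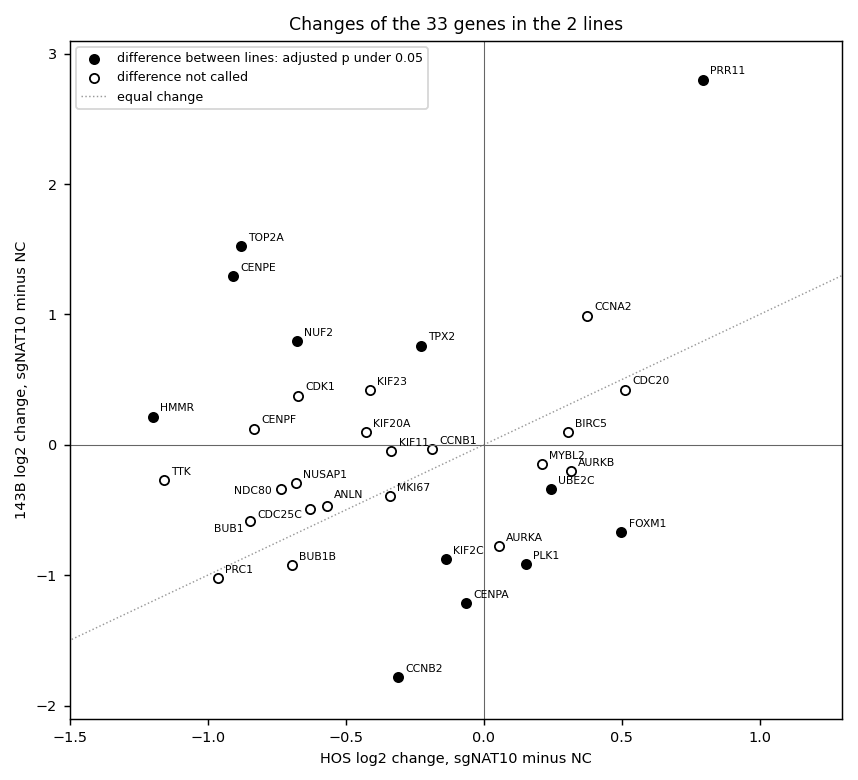
Log2 change of each of the 33 genes in 143B (vertical axis) against its log2 change in HOS (horizontal axis), sgNAT10 minus NC; filled points have a limma adjusted p under 0.05 for the difference between lines and the dotted line marks equal change. TOP2A and CENPE lie at the upper left, PRR11 at the upper right, and CCNB2 at the bottom.

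The base composition of the transcripts moved with the HOS changes. GC content, taken from the longest protein-coding GENCODE 29 transcript of each gene, ranged from 35.3% to 60.5% over the 33 genes, with a median of 44.3%. The 7 genes that rose in HOS had 42.2% to 57.9% GC (median 52.2%), and the 20 that fell had 35.3% to 48.4% (median 41.6%). Over the 33 genes Pearson's r between the log2 change and GC was 0.71 in HOS and -0.29 in 143B, against 0.28 and -0.38 over all genes of each table; these are descriptions across genes, which share libraries. In the lowest of 5 equal GC classes the HOS median was -0.78 over 10 of the 33 genes and -0.15 over 2355 genes, in the next -0.36 over 8 of the 33 and 0.02 over 2354, and in the middle one -0.23 over 9 of the 33 and 0.30 over 2355. In the fourth class the medians lay closer, at 0.32 over 5 of the 33 and 0.37 over 2354, and in the highest they were 0.21 for 1 of the 33 and 0.31 over 2355. After correction for length and GC in each library 22 of the 33 were lower and 5 higher in HOS (33.8% and 32.1% of all genes), and after correction for GC alone 24 and 4 (35.0% and 34.9%). In 143B the corrected counts were 10 lower and 8 higher in both cases, near the shares of all genes (28.0% and 27.0%, and 28.9% and 26.7%). The part of base composition in the changes was not tested.

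**Figure D4:**
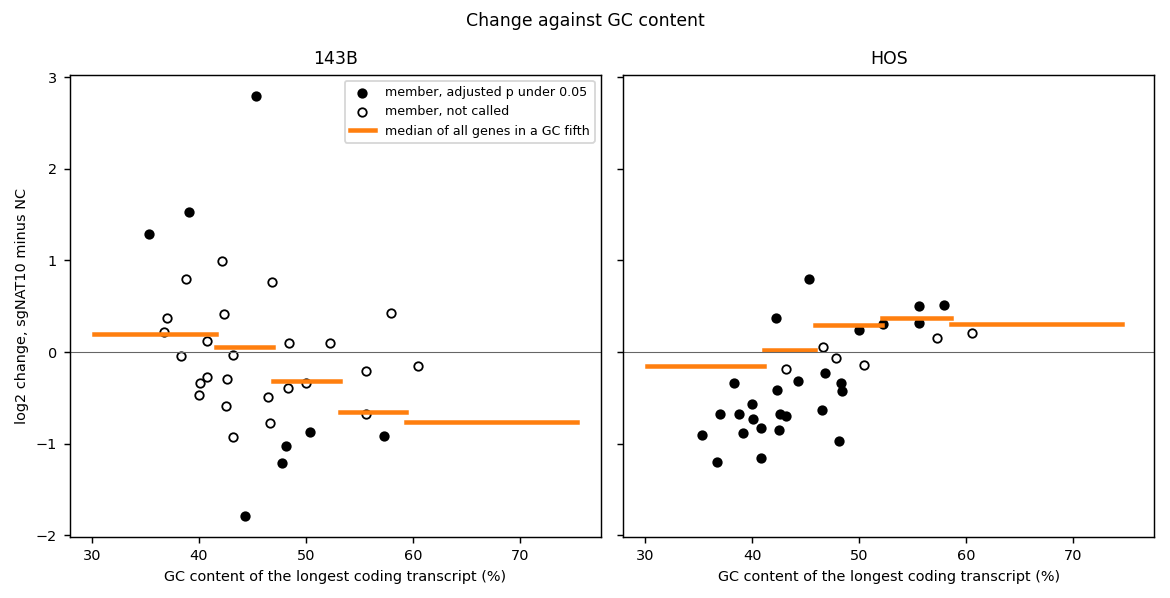
Log2 change (sgNAT10 minus NC) against transcript GC content in percent, 143B left and HOS right; points are the 33 genes, filled where the limma adjusted p was under 0.05, and orange bars the median of all genes tested in each of 5 equal GC classes. In HOS the 20 lower genes lie between 35.3% and 48.4% GC and the 7 higher genes between 42.2% and 57.9%.

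The rest of the mitotic machinery was followed in 9 further lists, some of which share genes, such as ESPL1 and KIFC1. With each gene counted once, 137 genes were tested in 143B and 139 in HOS. In HOS 69 of 139 fell (49.6%) and 38 rose (27.3%), and in 143B 23 of 137 fell (16.8%) and 16 rose (11.7%), beside the shares over all genes given above. Among 27 other centromere and kinetochore genes, 8 rose in 143B and 0 fell (0 also at an unadjusted p under 0.05), while in HOS 16 fell and 6 rose. Rescaled to a common sum, 2 rose in 143B, and 9 fell and 7 rose in HOS; correction for length and GC gave 15 rises and 5 falls in 143B. MIS18A, which helps load CENPA at centromeres, was at 72.27 and 57.09 FPKM in 143B sgNAT10, against 12.04 and 14.2 FPKM in 143B NC, both sgNAT10 libraries far above NC (log2 2.21, SE 0.27, limma adjusted p = 0.00132). In HOS its change of -0.14 did not pass the test (adjusted p = 0.201). DSN1, of the MIS12 complex, rose in 143B (log2 1.86, limma adjusted p = 0.00325) and fell in HOS (log2 -0.31, adjusted p = 0.0102), as did SKA2.

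Of 10 other spindle checkpoint genes, 2 fell in 143B and 7 in HOS, and 0 rose in either line by limma (0 also at an unadjusted p under 0.05). Rises were called under other settings, 2 in HOS when rescaled to a common sum, and in 143B 1 under median-ratio scaling or quantile normalization and 2, beside 4 falls, after length and GC correction. MAD2L1, which encodes the checkpoint effector MAD2, fell in both lines (log2 -1.60 and adjusted p = 0.0196 in 143B, -0.42 and 0.000404 in HOS by limma). MAD2L1BP, which silences the checkpoint, fell in 143B (log2 -2.02, adjusted p = 0.003) and ZWILCH, of the RZZ complex, in HOS (log2 -0.72, adjusted p = 6.62e-06). Of 19 genes of the anaphase promoting complex and its partners, 5 fell and 1 rose in 143B, and 11 fell and 3 rose in HOS (14 and 0 when corrected for length and GC, 6 and 7 with a common sum). ESPL1 encodes separase, which cuts cohesin. It was at 2.02 and 2.11 FPKM in 143B sgNAT10, against 11.24 and 11.88 FPKM in 143B NC, and at 9.27 and 8.72 FPKM in HOS libraries labelled sgNAT10, against 5.76 and 6.28 FPKM in HOS NC. It was thus lower in 143B (limma adjusted p = 0.0029) and higher in HOS (log2 0.51, limma adjusted p = 0.000519). Of the complex's own subunits, CDC26 fell in both lines (log2 -1.51 and -0.74) and ANAPC16 rose in 143B (log2 1.88).

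Of 10 other kinesins, 1 rose and 1 fell in 143B, and 3 rose and 4 fell in HOS, where length and GC correction gave 0 and 7 and median-ratio scaling 1 and 5; in 143B the correction gave 3 and 3. KIFC1, a minus-end motor that focuses spindle poles, fell in 143B (log2 -1.95, limma adjusted p = 0.0017) and rose in HOS (log2 0.27, adjusted p = 0.0123). KIF20B did the reverse (log2 1.28 and -0.83), and KIF18A fell in HOS (log2 -0.82). Of 16 other spindle and centrosome genes tested in 143B, 7 fell and 1 rose, and of 18 tested in HOS 10 fell and 6 rose. PSRC1, a microtubule-binding protein of the spindle, was at 19.13 and 19.11 FPKM in 143B sgNAT10, against 131.74 and 123.17 FPKM in 143B NC. The NC libraries were far higher (log2 -2.67, SE 0.24, limma adjusted p = 0.000891), and in HOS the groups overlapped (log2 0.03). Of 11 other passenger and cytokinesis genes, 1 fell in 143B and 0 rose (0 also at an unadjusted p under 0.05; 2 rises and 2 falls when corrected for length and GC), and in HOS 6 fell and 4 rose (2 and 4 when rescaled to a common sum). CDCA8, which encodes borealin, fell in 143B (log2 -1.43, limma adjusted p = 0.00674) and rose in HOS (log2 0.58, adjusted p = 7.95e-05). In HOS the citron kinase gene CIT rose (log2 0.69) and RACGAP1, of centralspindlin, fell (log2 -0.66).

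Among 19 condensin and cohesin genes 4 rose and 4 fell in 143B, and 5 rose and 7 fell in HOS (7 and 4 in 143B and 4 and 12 in HOS under median-ratio scaling). NCAPD3, of condensin II, fell in 143B (log2 -2.01), at 0.84 and 1.31 FPKM in sgNAT10, against 4.85 and 10.76 FPKM in NC. It passed the filter there only with the help of its NC libraries, in which it was high. SGO1, shugoshin, rose in 143B. CDCA5, sororin, fell in 143B (log2 -1.73, limma adjusted p = 0.00327) and rose in HOS (log2 0.66, adjusted p = 1.15e-05). Of 16 other entry kinases, phosphatases and targets 3 fell and 1 rose in 143B, and 8 fell and 7 rose in HOS (3 and 4, and 9 and 6, under median-ratio scaling). LMNB1, lamin B1, a substrate at nuclear envelope breakdown, was at 3.65 and 4.5 FPKM in 143B sgNAT10, against 17.03 and 36.39 FPKM in 143B NC, a fall (log2 -2.36, limma adjusted p = 0.00325). It was at 68.39 and 67.84 FPKM in HOS libraries labelled sgNAT10, against 45.56 and 47.98 FPKM in HOS NC, a rise (log2 0.53, limma adjusted p = 5.16e-05). CKS2, a CDK-binding protein, and the kinase gene MELK fell in both lines (MELK by log2 -2.09 in 143B and -0.33 in HOS). Of 12 DREAM and MuvB genes 2 fell in 143B and 0 rose by limma (2 at an unadjusted p under 0.05, and 2 under median-ratio scaling or after length and GC correction). In HOS 6 rose and 1 fell, beside 45.5% and 23.0% of all genes tested. That balance turned under median-ratio scaling, with 2 higher and 3 lower, beside 31.5% and 33.8% of all genes. E2F4, the repressor E2F of DREAM, was at 40.82 and 30.28 FPKM in 143B sgNAT10, against 109.75 and 114.79 FPKM in 143B NC, and at 57.23 and 54.41 FPKM in HOS libraries labelled sgNAT10, against 38.4 and 43.69 FPKM in HOS NC. It was lower in 143B (log2 -1.65, limma adjusted p = 0.00251) and higher in HOS (log2 0.44, limma adjusted p = 0.000605). E2F5 fell in 143B (log2 -1.55), at 0.46 and 1.09 FPKM in sgNAT10, against 2.56 and 6.32 FPKM in NC. It too passed the filter there only with the help of its NC libraries. RBL2, the pocket protein p130, rose in HOS (log2 0.77).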

How the data were processed

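Gene-level FPKM (fragments per kilobase of transcript, scaled by mapped fragments) were deposited by the authors, 1 table per line, with the unit named per the file headers. Tools named by the submitters' processing notes are RSEM, Bowtie2 and DESeq2, with the build GRCh38; versions, roles and annotation are not stated there. Listed genes all exceed 0.5 FPKM in 2 or more libraries. The tables give FPKM without read counts: depth is unknown, and neither counting intervals nor count tests were used. Genes with at least 1 FPKM in 2 of a line's 4 libraries were tested on log2(FPKM + 1), a scale that understates changes of low genes, with limma 3.58.1 in R 4.3.3 (two-sided, with an intensity trend; p adjusted over all genes by Benjamini-Hochberg, threshold 0.05). Lines were fitted separately, and a joint fit over genes passing in both tables, with a spread per gene shared by both lines, gave the difference between lines. With 2 libraries against 2, an exact permutation test cannot go below p = 0.33, so the tests rest on spread pooled across genes.

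Alternatives were pseudocounts of 0.1 and 5, no filter or one at 5 FPKM, quantile normalization, a common sum per library, median-ratio scaling (by the median ratio of a library's genes to their mean level), no trend, a spread shared by 8 libraries, a replicate block, a spline (4 degrees of freedom) on transcript length and GC per library, and leaving out each library, which assumes the lone library left in a group varies like the others. A spline on GC alone and a crossed block in HOS were chosen after seeing the data. The correction also recentres each library. GENCODE 29 transcripts matched 98.3% of 143B and 98.5% of HOS genes tested. Fits were tested on simulated data. The genes and lists were chosen with earlier results of these data known. Per-library values are given, within each role, for the called genes with the largest changes in each line (up to 2). They are also given for genes whose difference between lines was called, and for CDC20 in HOS, which neither rule selects. Each further list names at most 3 called genes.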

Additional observations from a re-analysis of the deposited data

Results flagged for a closer look

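The change differed between the lines for NAT10 and 12 of the 33 mitotic genes, against 49.1% of 10655 genes tested. This was by the joint limma fit of the difference (143B change minus HOS change, on the log2(FPKM + 1) scale, with 2 libraries per group). That fit gives both lines the same spread for each gene, though replicates were closer in HOS. NAT10 RNA was lower in 143B sgNAT10 and higher in the HOS libraries labelled sgNAT10, a difference of -1.41 (SE 0.29, adjusted p = 0.00359). TOP2A, at 2.4 (SE 0.39, adjusted p = 0.00114), and CENPE, at 2.2 (SE 0.46, adjusted p = 0.00392), rose in 143B and fell in HOS. PRR11 rose in both lines, and by more in 143B, with a difference of 2.01 (SE 0.32, adjusted p = 0.001). NUF2 differed by 1.47 (adjusted p = 0.0366), HMMR by 1.42 (adjusted p = 0.0279) and TPX2 by 0.987 (adjusted p = 0.0438), each a fall in HOS beside a 143B value above 0 that was not called.

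CCNB2 fell in both lines on the scale as deposited, and by more in 143B, with a difference of -1.47 (SE 0.5, adjusted p = 0.0345). FOXM1 rose in HOS and had an uncalled value below 0 in 143B, a difference of -1.17 (adjusted p = 0.0106). CENPA differed by -1.15 (adjusted p = 0.0151), PLK1 by -1.07 (adjusted p = 0.0198) and KIF2C by -0.741 (adjusted p = 0.0414), each a fall in 143B beside an uncalled HOS value. UBE2C, at -0.583 (adjusted p = 0.0493), rose in HOS and was not called in 143B. Under median-ratio scaling 0 of the 33 had a called difference below 0 and 12 had one above. FOXM1, PLK1, KIF2C and UBE2C also lost theirs after GC correction alone. Over all alternatives their differences shrank to as little as -0.0246, -0.0882, -0.0336 and -0.0235. Called differences other than those of TOP2A, CENPE and PRR11 were also lost with 1 HOS library left out. TOP2A, CENPE and PRR11 kept theirs under every alternative run.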

How the results depend on the processing

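Of 20 HOS falls, 16 kept their call under every alternative but the spread shared by 8 libraries, as did 2 of 7 HOS rises (CDC20 and PRR11). In 143B, CCNB2, TOP2A and PRR11 kept theirs under all alternatives. Counts moved as follows, with the share of all genes called in brackets. The 143B falls numbered 5 as deposited (25.4%), 2 under median-ratio scaling (22.3%), 3 under quantile normalization (25.0%) and 3 with no trend (24.6%). They numbered 10 after length and GC correction (28.0%) or GC correction alone (28.9%). The 143B rises numbered 3 as deposited (12.9%), 6 under median-ratio scaling (20.7%), 8 under quantile normalization (24.4%) and 5 with the shared spread (16.6%). They numbered 8 after length and GC correction (27.0%) or GC correction alone (26.7%). HOS rises numbered 7 as deposited (45.5%), 3 under median-ratio scaling (31.5%) and 4 after GC correction alone (34.9%). With the shared spread 1 rise (14.7%) and 2 falls (2.8%) were left in HOS. Differences between lines numbered 12 as deposited (49.1%), 20 under quantile normalization (55.3%) and 19 after length and GC correction (58.2%). Leaving out 1 library gave 1 to 10 falls and 2 to 7 rises in 143B, 17 to 21 falls and 4 to 9 rises in HOS, and 3 to 16 differences. The shares of all genes called moved too when 1 library was left out. Why these counts and shares moved was not tested.

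Replicate numbers pair no samples by the labels (2 pairs a line; the correlation of deviations was 0.605 in 143B and -0.106 in HOS). With the number as a replicate block 11 of the 33 fell in 143B, BUB1 and BUB1B among them, and 7 rose, CDC20 among them. Of all genes tested in 143B, 43.0% fell and 24.0% rose with the block. Differences were then called for 20 of the 33, against 69.1% of all genes. With the block and length and GC correction there were 13 falls, 10 rises and 20 differences. Over all genes there were 3707 falls and 3517 rises of 11224, and 6725 differences of 10513. The block left 19 falls and 7 rises in HOS, and the crossed block 20 and 8.

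Among values called either as deposited or after the change, length and GC correction turned the sign of MYBL2 in 143B (0.656) and HOS (-0.135), NAT10 in HOS (-0.0766), and the differences of MYBL2 (0.791), CDC20 (0.665), BIRC5 (0.595), PRC1 (0.545) and MKI67 (0.673); the same correction with the replicate block gave the same values. GC correction alone turned PLK1 (-0.2), UBE2C (-0.0376), AURKB (-0.0356) and BIRC5 (-0.0174) in HOS and the differences of MYBL2 (0.664), CDC20 (0.907) and BIRC5 (0.525). Of genes not called as deposited, 16 of 25 in 143B, 6 of 6 in HOS and 14 of 21 differences changed sign under some alternative. Depth is unknown, so what it limits cannot be given.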
